A study of Mus musculus with 6 samples.

Results

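The circadian clock of the mouse is a loop of transcription factors that feed back on their own genes, and it was examined here at the neuromuscular junction (NMJ), the synapse between a motor axon and a muscle fibre. Of 10 listed core clock genes, 7 were measured, each by the 1 array row that carried its symbol alone, of 14860 genes that could be named in this way. These were Arntl (also called Bmal1), Clock, Per1, Per3, Cry1, Nr1d2 and Dbp. The rows of Per2 and Nr1d1 also carried the symbol of another gene, and Cry2 had no listed row, so these 3 genes were not analysed here. Tibialis anterior muscle, a fast muscle of the lower leg, came from 16-week-old mice of the ICR strain, which is outbred, and the labels name no allele or drug. One group of 3 arrays held RNA from fibre regions at the NMJ, found by staining for acetylcholinesterase and cut out by laser, and the other group of 3 arrays held RNA from an equal area of the same fibres away from the NMJ. Arrays are numbered 1 to 3 within each region. The labels do not say whether the arrays of a region came from separate animals, so the p-values measure only the spread between these samples. The time of day at which muscle was taken is not given in the sources used here.

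In the clock loop, the proteins BMAL1 (from Arntl) and CLOCK bind DNA together at E-boxes and switch on the Period, Cryptochrome, REV-ERB and Dbp genes. PER and CRY proteins then enter the nucleus and repress BMAL1 and CLOCK, while the REV-ERB proteins (from Nr1d1 and Nr1d2) repress Arntl and Clock. DBP activates genes through a further element, the D-box, and skeletal muscle runs this clock in its own nuclei, where it times many genes of metabolism.

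The sequences below show where letters that match the elements of these factors lay in the start regions of the measured genes. Binding was not measured. Each is a window of 300 bases from RefSeq on GRCm38.p6, from 250 bases before the annotated gene start to 50 after it, printed on the strand of the gene with the element in capitals. The RefSeq table held 11 windows for the 7 genes, and 4 windows, of 4 genes, held an element.
Per1, E-box: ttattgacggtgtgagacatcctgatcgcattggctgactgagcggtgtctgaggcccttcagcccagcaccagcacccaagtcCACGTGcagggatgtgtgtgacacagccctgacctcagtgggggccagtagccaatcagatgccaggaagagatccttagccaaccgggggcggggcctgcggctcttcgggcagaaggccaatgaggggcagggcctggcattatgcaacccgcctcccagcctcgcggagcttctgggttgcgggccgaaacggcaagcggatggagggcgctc
Cry1, E-box: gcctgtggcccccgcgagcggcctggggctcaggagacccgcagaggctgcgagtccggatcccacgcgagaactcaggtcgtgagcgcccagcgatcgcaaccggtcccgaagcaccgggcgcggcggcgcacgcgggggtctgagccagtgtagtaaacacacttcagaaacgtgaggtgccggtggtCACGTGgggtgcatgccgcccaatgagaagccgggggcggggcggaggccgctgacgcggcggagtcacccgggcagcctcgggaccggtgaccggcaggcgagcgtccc
Per3, D-boxes: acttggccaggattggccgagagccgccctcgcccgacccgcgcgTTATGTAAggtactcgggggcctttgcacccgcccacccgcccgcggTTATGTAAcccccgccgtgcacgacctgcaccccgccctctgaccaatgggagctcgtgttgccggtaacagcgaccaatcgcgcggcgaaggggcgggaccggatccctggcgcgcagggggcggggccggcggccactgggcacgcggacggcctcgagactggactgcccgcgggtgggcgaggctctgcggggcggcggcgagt
Arntl, REV-ERB/ROR element: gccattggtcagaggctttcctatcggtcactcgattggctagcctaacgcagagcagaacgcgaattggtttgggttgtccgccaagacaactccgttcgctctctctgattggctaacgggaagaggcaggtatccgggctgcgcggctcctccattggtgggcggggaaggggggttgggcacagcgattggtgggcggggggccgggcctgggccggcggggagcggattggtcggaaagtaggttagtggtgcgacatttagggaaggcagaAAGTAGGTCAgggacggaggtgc
The Per1 window lies at chr11:69098699-69098998 on the plus strand and the Cry1 window at chr10:85185005-85185304 on the minus strand. The Per3 window lies at chr4:151044616-151044915 on the minus strand and the Arntl window at chr7:113207261-113207560 on the plus strand. Both strands were searched for the E-box CACGTG, for the D-box as TTATGTAA or TTACGTAA, and for the REV-ERB/ROR element as AAN followed by TAGGTCA or TGGGTCA, and no matches overlapped. The E-box began 166 bases before the start in Per1 and 60 bases before it in Cry1. The D-boxes of Per3 began 205 and 158 bases before its start, and the Arntl element began 27 bases after its start. Among all 32851 promoter windows in the table, 7.15% held an E-box, 1.06% a D-box and 0.435% a REV-ERB/ROR element. The windows of Clock, Nr1d2 and Dbp held none of these letters, which says nothing about more distant elements.

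Core clock genes differed between the regions in both directions. Per1 and Cry1, which encode repressors of the loop, were 1.42-fold and 1.58-fold higher at the NMJ. Nr1d2 and Dbp, from the REV-ERB and output branches, were 1.31-fold and 1.43-fold lower. For Arntl, Clock and Per3 no difference passed the threshold. Values are log2 expression values made by the authors with RMA (robust multi-array averaging), differences are NMJ minus non-NMJ, and a gene was called at an adjusted p under 0.05 in limma, with Benjamini-Hochberg adjustment over all 23332 rows. With 2 of 7 genes called higher and 2 of 7 lower, the counts stand beside 14.4% of all rows called higher and 8.63% called lower. Over both directions 4 of 7 were called, against 23% of all rows, and 27.8% of rows with 1 symbol. All 7 genes lay above the median of every array, and dim rows were called less often. With the dimmest 50% of rows left out, 5507 of 11666 rows were called, and 2 core genes were still higher and 2 lower. The share over all rows is therefore a low comparison for genes this bright. The median difference of the 7 genes was 0.26 and that of all rows was -0.0067. This median depended on the scaling. It was -0.0053 after quantile normalization (all rows -0.065) and 0.12 after median centring (all rows -0.15). The regions did not overlap for 6 of the 7 genes, where this held for 41% of all rows. Of these 6, the NMJ arrays were all higher for 4 (22.8% of all rows) and all lower for 2 (18.2% of all rows).

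**Figure D1:**
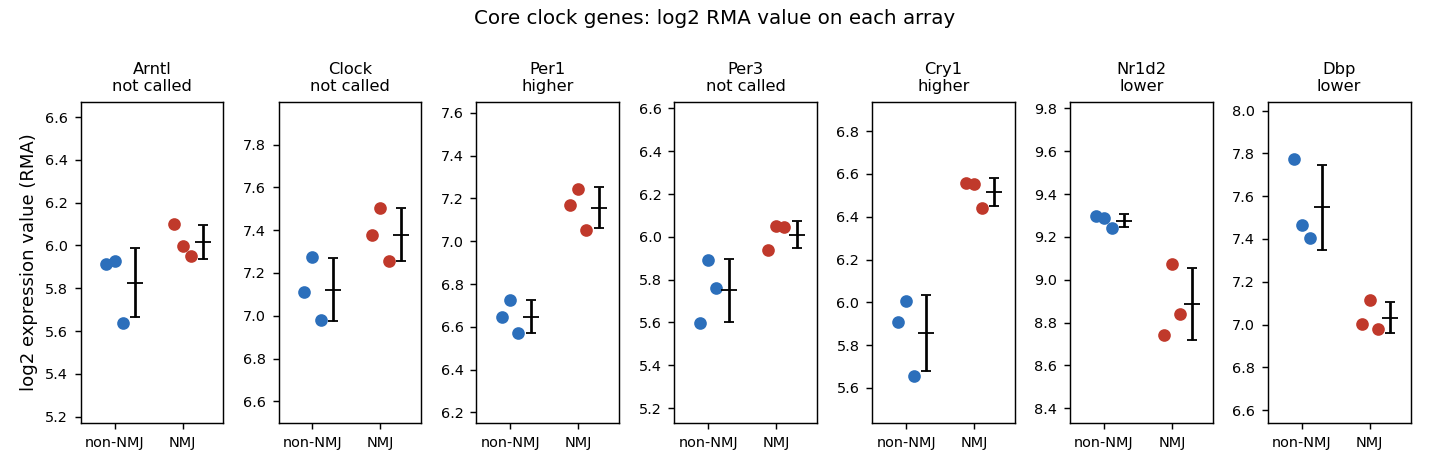
Log2 RMA value of each measured core clock gene on each array, with non-NMJ arrays in blue and NMJ arrays in red; the black bar and whiskers are the mean and SD of 3 arrays, and every panel spans the same number of log2 units. Per1 and Cry1 lie higher and Nr1d2 and Dbp lower on all 3 NMJ arrays, while the regions overlap for Clock.

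The positive limb of the loop is the pair that switches the other genes on. Arntl (row 6963558) had log2 values of 6.10, 5.997 and 5.95 on NMJ arrays 1 to 3 and 5.92, 5.93 and 5.64 on the non-NMJ arrays. All NMJ values were higher, but NMJ array 3 and non-NMJ array 2 lay almost level, and non-NMJ array 3 was the lowest. The difference was 0.19 ± 0.11 (SE, n = 3 per region; limma adjusted p = 0.292), with a 95% confidence interval from -0.08 to 0.46. Clock (row 6939265), whose protein is the partner of BMAL1, had values of 7.38, 7.50 and 7.25 at the NMJ and 7.11, 7.27 and 6.98 away from it. NMJ array 3 lay below non-NMJ array 2, so the regions overlapped. The difference was 0.26 ± 0.12 (SE; limma adjusted p = 0.176), with an interval from -0.02 to 0.54. The intervals leave room for a difference of either sign. After quantile normalization of the arrays the estimates were -0.075 for Arntl and 0.089 for Clock, so that for Arntl even the sign depends on the scaling.

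The Period and Cryptochrome genes encode the repressors that close the loop. Cry1 (row 6775674) had log2 values of 6.56, 6.55 and 6.44 on NMJ arrays and 5.91, 6.004 and 5.66 on non-NMJ arrays. Every NMJ array lay above every non-NMJ array, and the gap between the regions exceeded the spread within either. The mean rose from 5.86 ± 0.18 to 6.52 ± 0.07 (SD, n = 3), a difference of 0.66 ± 0.11 (SE; limma adjusted p = 0.00956), with an interval from 0.38 to 0.94. Per1 (row 6781984) had values of 7.17, 7.24 and 7.05 at the NMJ and 6.64, 6.73 and 6.57 away from it, again without overlap. Its difference was 0.51 ± 0.09 (SE; limma adjusted p = 0.0112), with an interval from 0.28 to 0.73. Per3 (row 6927085), a Period gene that the loop does not depend on in the mouse, had values of 5.94, 6.05 and 6.05 at the NMJ and 5.60, 5.89 and 5.76 away from it. The regions did not overlap, but NMJ array 1 and non-NMJ array 2 lay close together. The difference was 0.26 ± 0.10 (SE; limma adjusted p = 0.136), with an interval from 0.01 to 0.51. Per1 did not pass without NMJ replicate 1 (limma adjusted p = 0.0523), while Cry1 passed without any single array. After quantile normalization Per1 and Cry1 still passed, at smaller differences of 0.30 and 0.40, and the estimate for Per3 was -0.0053.

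Nr1d2 and Dbp are both switched on by BMAL1 and CLOCK. Dbp (row 6960404), a transcription factor that carries clock timing to other genes, had log2 values of 7.003, 7.11 and 6.98 on NMJ arrays and 7.78, 7.46 and 7.41 on non-NMJ arrays. All NMJ arrays were lower, and non-NMJ array 1 stood above the other two of its region. The mean fell from 7.55 ± 0.20 to 7.03 ± 0.07 (SD, n = 3), and the difference was -0.52 ± 0.12 (SE; limma adjusted p = 0.0286), with an interval from -0.81 to -0.22. Nr1d2 (row 6822946), which encodes the repressor REV-ERB beta, had values of 8.74, 9.07 and 8.84 at the NMJ and 9.30, 9.29 and 9.24 away from it. The non-NMJ arrays lay close together, and the NMJ arrays were lower and more spread out. The difference was -0.39 ± 0.11 (SE; limma adjusted p = 0.0490), close to the threshold, with an interval from -0.65 to -0.12. These calls were less stable than those of Cry1. Dbp did not pass without non-NMJ replicate 2 (limma adjusted p = 0.0538) or without NMJ replicate 1, 2 or 3 (0.0986, 0.0664 and 0.0886). Nr1d2 passed without NMJ replicate 2, but not without NMJ replicate 1 or 3 (limma adjusted p = 0.158 and 0.133) or non-NMJ replicate 1, 2 or 3 (0.115, 0.111 and 0.0881).

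**Figure D2:**
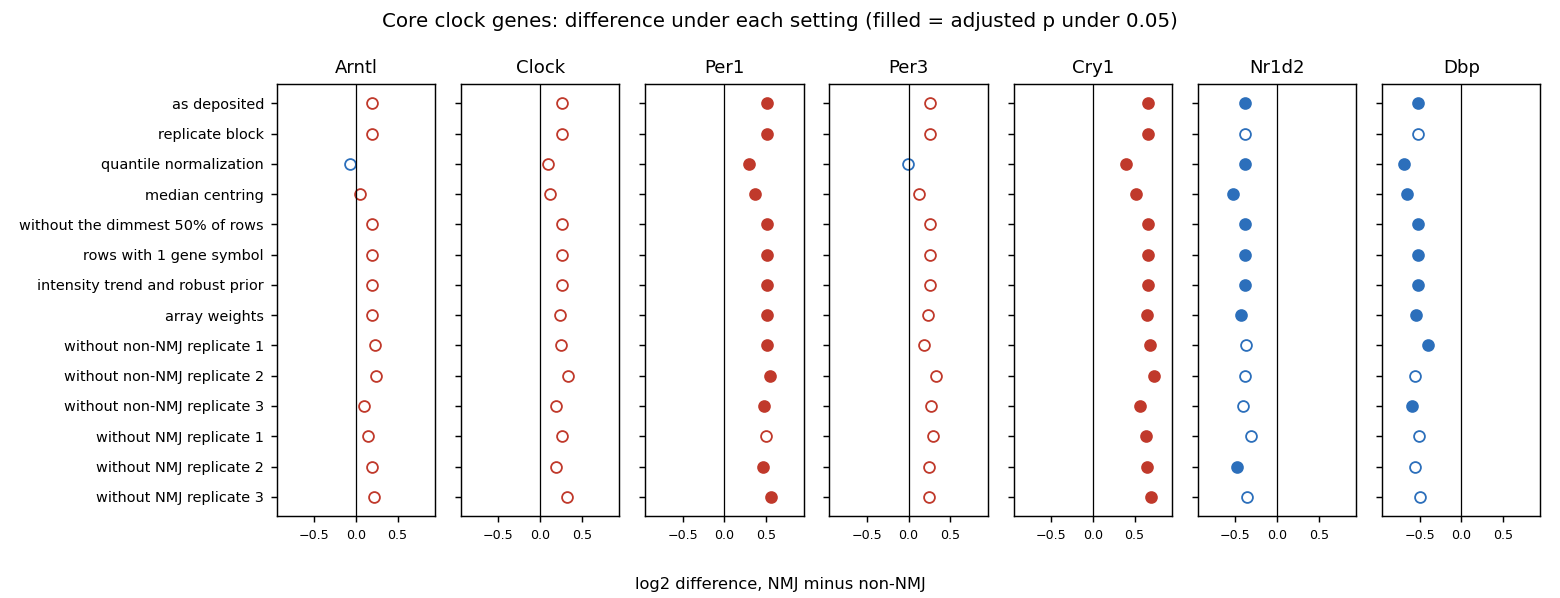
Log2 difference (NMJ minus non-NMJ) of each core clock gene under the values as deposited and 13 other settings, red above 0 and blue below 0; filled points passed an adjusted p under 0.05 in limma. Cry1 passes in every setting shown and Per1 in all but the omission of NMJ replicate 1, Nr1d2 and Dbp stay below 0 but lose the call with the replicate block and when several single arrays are left out, and Arntl and Per3 fall below 0 after quantile normalization.

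A ratio of 2 genes on the same array does not change when the whole array is shifted, as median centring does, so the ratios of the higher to the lower genes were examined. Pairs were picked by their values, so they are a description with no test, and only the change of a ratio between regions can be read, not its level. Per1 relative to Dbp stood at log2 ratios of 0.17, 0.13 and 0.07 on NMJ arrays and -1.13, -0.74 and -0.84 on non-NMJ arrays. The mean ratio was 1.02 higher at the NMJ. Cry1 relative to Dbp had ratios of -0.44, -0.56 and -0.54 at the NMJ and -1.87, -1.46 and -1.75 away from it, a change of 1.18. For Per1 and Cry1 relative to Nr1d2 the changes were 0.90 and 1.05. In all 4 pairs the regions did not overlap. That was fixed by the choice of pairs, as each gene alone did not overlap and the genes of a pair differed in opposite directions.

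**Figure D3:**
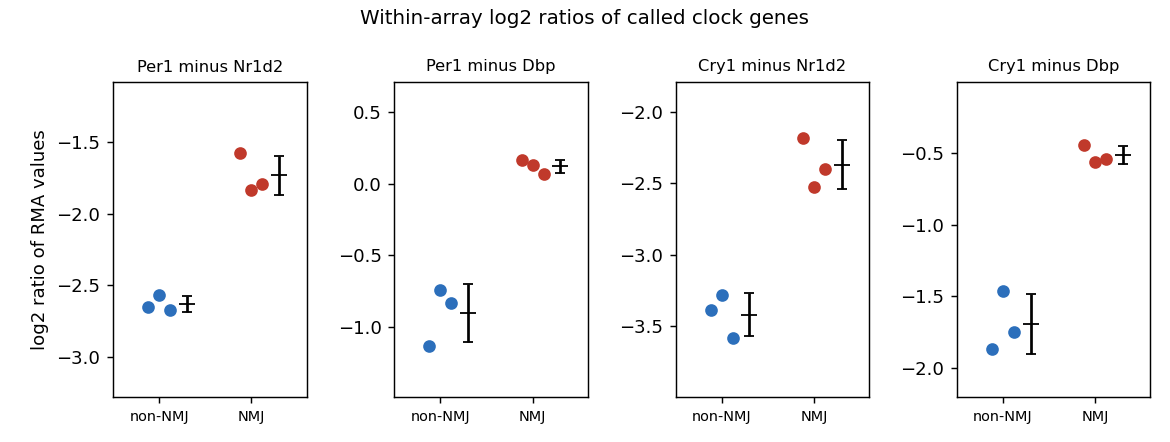
Within-array log2 ratio of each called higher gene (Per1, Cry1) to each called lower gene (Nr1d2, Dbp), 1 point per array, non-NMJ in blue and NMJ in red, with mean and SD. The regions are apart in all 4 panels, by 0.90 to 1.18 log2 units between means. This follows from the choice of genes, none of which overlapped between the regions. The level of a ratio has no meaning across rows of the array.

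The clock is tuned by a wider set of kinases, ubiquitin enzymes and related transcription factors. Of 24 such partners and regulators, 21 were measured, and 3 rose, 3 fell and 15 did not pass in limma, a called share of 28.6%, near the 23% of all rows. Their median difference was -0.02, and 6 fell after median centring, where lower calls over all rows grew from 2013 to 3690. Prkaa1, the alpha 1 catalytic subunit of the energy sensor AMPK, a kinase that marks CRY1 for breakdown, had the largest difference of the list. Its log2 values were 8.89, 9.01 and 8.82 at the NMJ and 6.82, 6.67 and 6.31 away from it, a 4.94-fold increase (difference 2.30 ± 0.15, SE; limma adjusted p = 2.39e-04). Prkaa2, the alpha 2 subunit that predominates in muscle fibres, rose by 0.37 ± 0.08. It did not pass after median centring (limma adjusted p = 0.0714), nor without NMJ replicate 1 or 2 (0.0876 and 0.0805) or non-NMJ replicate 2 (0.0589). Csnk1d, the casein kinase 1 delta that phosphorylates PER proteins, rose by 0.43 ± 0.08 (limma adjusted p = 0.0132), but did not pass without NMJ replicate 1 or 2 (0.0612 and 0.0564).

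Bhlhe41, a repressor that competes for E-boxes (also called DEC2), had log2 values of 6.38, 6.49 and 6.50 at the NMJ and 7.34, 7.58 and 7.40 away from it. It was 1.98-fold lower at the NMJ (difference -0.99 ± 0.10, SE; limma adjusted p = 0.00118), with no overlap between the regions. Nfil3, a repressor that binds the same D-boxes as DBP, fell by 0.69 ± 0.13 (limma adjusted p = 0.0130), so this repressor and Dbp were both lower. Nfil3 did not pass without NMJ replicate 2 (limma adjusted p = 0.0532). Usp2, a deubiquitinase with strong daily rhythm in many tissues, fell by 0.51 ± 0.10 (limma adjusted p = 0.0151), and did not pass without NMJ replicate 1 or 3 (0.0582 and 0.0542). Among the 15 that did not pass, Gsk3b, a kinase that phosphorylates several clock proteins, had a difference of -0.02, and the E-box repressor gene Bhlhe40 had one of 0.04. Both changed sign with the setting, Gsk3b without NMJ replicate 3 or non-NMJ replicate 2 and Bhlhe40 after quantile normalization or median centring. Tef, a relative of Dbp, had a difference of -0.07 and Csnk1e, the epsilon kinase, one of -0.16. Csnk1e passed after median centring, at -0.30 (limma adjusted p = 0.0341).

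**Figure D4:**
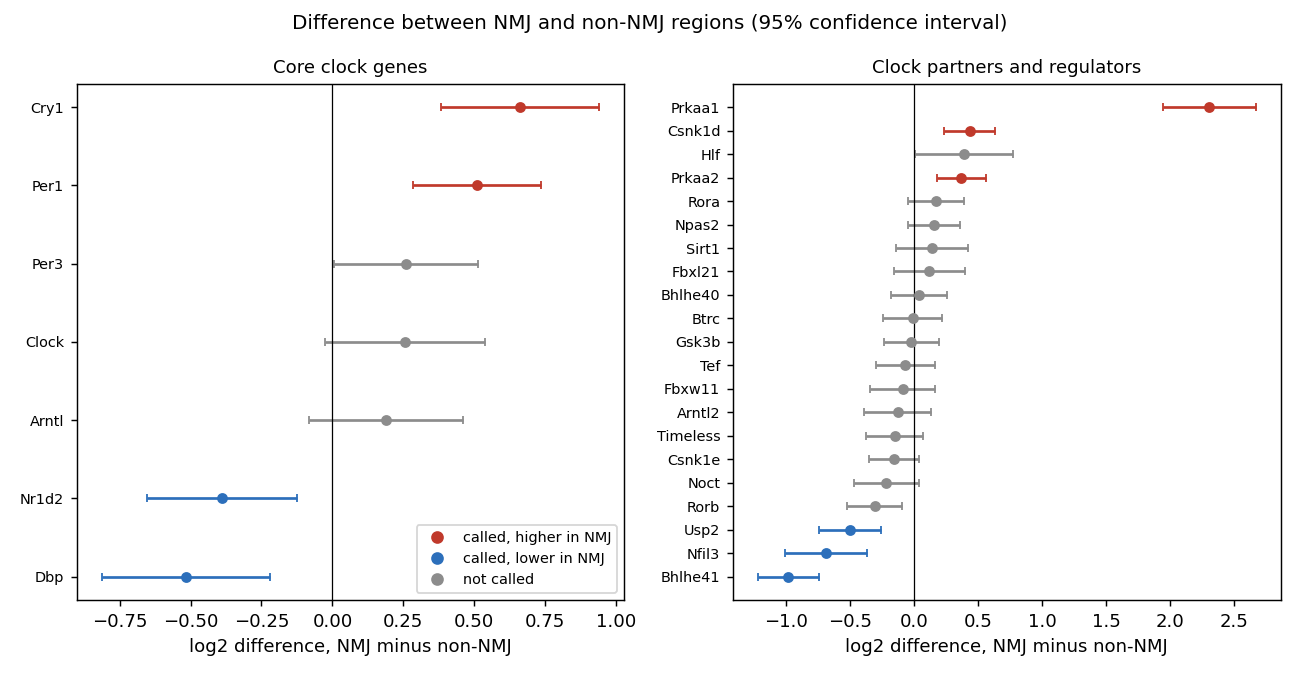
Log2 difference (NMJ minus non-NMJ) with its 95% confidence interval for the 7 core clock genes and the 21 measured partners and regulators; red is called higher, blue called lower and grey not called. Among the core genes Cry1 is the highest and Dbp the lowest, and among the partners Prkaa1 stands apart at 2.30 and Bhlhe41 is the lowest at -0.99.

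Many clock proteins come in related pairs, and whether both members of a pair differed alike was asked through the change of their within-array log2 ratio. There were 8 pairs, added after the values were seen, and with 3 arrays against 3 an exact permutation test cannot go below p = 0.1, so no pair could pass and the changes are given as values. Per1 relative to Per3 was 0.25 higher at the NMJ, but the regions overlapped (two-sided exact permutation p = 0.2, and 0.229 adjusted over the pairs). Clock relative to its relative Npas2 changed by 0.10, also with overlap (exact permutation p = 0.6). The other 6 pairs did not overlap, each at the smallest exact permutation p of 0.1 (0.133 adjusted). Among single rows the regions did not overlap for 41% of all rows, and no such share was computed for ratios. Dbp relative to Tef was lower by a change of -0.44 and relative to Hlf, the other member of its family, by -0.91. Bhlhe41 relative to Bhlhe40 changed by -1.02, Csnk1d relative to Csnk1e by 0.59, and Prkaa1 relative to Prkaa2 by 1.94. Arntl relative to Arntl2 changed by 0.32, but Arntl2 lay below the median of every array, where its level over background is unknown. Hlf alone had a difference of 0.39 (limma adjusted p = 0.136) and passed without non-NMJ replicate 1, at 0.54 (0.0326).

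Of 14 genes listed as clock outputs or as rhythmic in muscle or other tissues, 13 were measured. In limma 2 rose and 5 fell, a called share of 53.8% beside 23% of all rows (14.4% higher and 8.63% lower). With the dimmest 50% of rows left out, 2 of the 13 rose and 7 fell, while 5507 of 11666 rows were called. The median difference of the 13 genes was -0.32, and 8 fell after quantile normalization or median centring. Lower calls over all rows also grew in these settings, from 2013 to 3294 and 3690. Ucp3, a mitochondrial carrier protein gene of muscle, was 4.06-fold lower at the NMJ, and its 3 NMJ values (mean 6.70 ± 0.04, SD) lay far below its non-NMJ values (8.72 ± 0.07). Fkbp5, a chaperone partner of the glucocorticoid receptor, was 4.82-fold higher (8.79 ± 0.15 against 6.52 ± 0.16, SD, n = 3). Fbxo32, a ubiquitin ligase gene, and Hk2, a hexokinase gene, fell by 0.70 and 0.55. Glucocorticoids also induce Per1, and of 10 listed glucocorticoid-induced genes, 7 were measured. Of these, 2 were higher (Fkbp5 and Foxo3) and 2 lower (Sgk1 and Fbxo32), a called share of 57.1% beside the same 23% of all rows. With the dimmest 50% of rows left out, 2 of 6 were higher and 2 lower, beside the same 5507 of 11666 rows. Sgk1, a kinase gene, fell by 2.29 and Foxo3, a transcription factor gene, rose by 0.75, so that the list did not move one way. Foxo3 did not pass after quantile normalization (limma adjusted p = 0.148), nor without NMJ replicate 1, 2 or 3 (0.0524, 0.0551 and 0.0631) or non-NMJ replicate 1 (0.0593).

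The genes whose profiles over the 6 arrays lay nearest to that of Cry1, the core gene with the largest difference, were Ogt, Ppic and Top1. Ogt encodes the O-GlcNAc transferase, Ppic a cyclophilin and Top1 a DNA topoisomerase. Likeness was the root mean square difference between profiles after each gene's mean was removed, searched over 8783 genes above the median row, and it was 0.025, 0.025 and 0.034 log2 units. Their own differences were 0.68, 0.67 and 0.71. Nearest to Arntl were Ftsj1, an RNA methyltransferase gene, and the lysine demethylase genes Kdm2b and Kdm1b, at 0.024, 0.027 and 0.028 log2 units, with differences of 0.20, 0.17 and 0.16. The search picks genes with differences like those of Cry1 and Arntl, so the differences listed here follow from it. The points of these profiles share their arrays.

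The regions differed widely, and the arrays followed their labels: the acetylcholine receptor gene Chrna1 was 59.5-fold higher at the NMJ. Of all 23332 rows, 3351 were called higher and 2013 lower, so 62.5% of calls were higher. That share became 46.6% when the arrays were quantile normalized and 41.7% when they were centred on their medians. Centring moved the median difference of all rows to -0.15, and by construction it lowers the difference of every gene by the same step. Per1 and Cry1 remained called higher at 0.37 and 0.52 (limma adjusted p = 0.0247 and 0.0179), and Nr1d2 and Dbp lower at -0.53 and -0.66 (0.0141 and 0.0109). Many markers of other cell types, which run clocks of their own, also differed between the regions. Their counts stand beside 14.4% of all rows called higher and 8.63% called lower. All 8 measured Schwann cell markers of 10 listed were called higher, with summed linear values of 2064 to 2191 at the NMJ and 288 to 338 away from it. Of 10 fibroblast markers, 8 were higher (9638 to 10085 against 3001 to 3246), and of 8 endothelial markers 6 were lower (720.8 to 792.9 against 962 to 1091). Mural cell markers had 5 of 8 lower and 1 higher (1572 to 1658 against 2430 to 2694). Macrophage markers had 3 of 9 higher and 1 lower (547 to 636 against 430 to 475). Satellite cell markers had 2 of 7 higher (308 to 372 against 196 to 241), a called share of 28.6%, near the 27.8% of rows with 1 symbol. Muscle fibre markers had 5 of 6 measured lower (36160 to 36949 against 46263 to 47683). A summed linear value is weighted to the brightest markers, so it need not follow the others of its list. Sdc4 (mean 7.68 against 6.43) was the brightest satellite cell marker, while Pax7 differed by 0.11 and was not called. Rgs5 (9.28 against 10.46) was the brightest mural cell marker. Of the macrophage markers, Mrc1 rose (7.29 against 5.43) while Cd68 fell (6.76 against 7.06). RMA values have no true zero, so no marker can be said to be absent. The part of these cells in the clock gene differences was not tested, and fewer cells of a type and less RNA per cell cannot be told apart.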

How the data were processed

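RNA (10 ng per sample, amplified) from 9973 laser-captured NMJs and an equal non-NMJ area was hybridised to exon arrays, 1 array per sample, per the labels' protocols. The deposited values are gene-level log2 expression values made by the authors with RMA in Affymetrix Expression Console and Transcriptome Analysis Console, per the submitters' processing notes. For versions, settings and build, nothing is given in the sources used here. Deposited values between 0.87 and 13.97 showed the scale to be log2. RMA compresses differences in dim and bright rows, and no detection calls were used. The number of arrays limits the precision.

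Of 23332 rows, 14996 carried 1 symbol in the platform's gene table, 1019 several and 7317 were unnamed. By gene identifier 14941 of the rows with 1 symbol matched RefSeq (GRCm38.p6). A gene with several rows took the one with the highest mean. All rows were fitted with limma 3.58.1 in R 4.3.3 (lmFit, eBayes, 2 groups, no term for the replicate number), and scipy 1.17.1 ran the exact permutation tests. The step was tested on simulated data, with 67, 67 and 66 of 23332 rows changed by 0.5, 1 and 2 log2 units. Of these, 10.4%, 55.2% and 84.8% were called in the right direction, with 2 false calls. Far fewer rows were changed there than were called on the real arrays, so the p-value adjustment was not alike. The members and lists were chosen with earlier results of these data known.

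All measured core genes were named, as were the called partners and regulators with the 4 others of highest mean, and the 4 output and 4 glucocorticoid genes of smallest p. Likeness named 3 genes each for Cry1 and Arntl. Npas2, Arntl2 and Hlf were added later as relatives. The fit was repeated with a block for the replicate number, after quantile normalization or median centring, and with row filters, other variance models and thresholds, and the omission of each array.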

Additional observations from a re-analysis of the deposited data

How the results depend on the processing

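Over 91 values of the 7 core clock genes under 13 other settings, 77 kept their direction and their side of the threshold, 12 lost the call and 2 reversed. The replicate block, the row filters and the variance model with an intensity trend leave each difference unchanged by construction. There only the call could change, and the fits with an array omitted share most of their arrays, so the count of 77 is partly fixed in advance. The counts of core genes, 2 higher and 2 lower, became 1 and 0 at an adjusted p under 0.01 in limma; 2 of the lower genes were past an unadjusted p under 0.05. Omission of single arrays left 1 to 2 higher and 0 to 1 lower core genes, and where 0 were lower both still had an unadjusted p under 0.05. With the replicate number as a block the count of lower core genes was 0 in limma (2 at an unadjusted p under 0.05) and that of higher ones stayed 2. Whether the numbers pair the arrays is not known. Deviations of same-numbered arrays correlated at 0.05, 0.04 and 0.18. The same number was the best match for NMJ arrays 1 and 3, but NMJ array 2 correlated best with non-NMJ array 1 (0.11). The block left 5064 called rows in place of 5364.

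Over all rows, 3351 higher and 2013 lower calls became 1891 and 885 at an adjusted p under 0.01, and 2220 to 2879 and 1133 to 1888 when an array was omitted. Lower calls numbered 3294 after quantile normalization and 3690 after median centring. For partners and regulators 6 were lower after median centring, and omission of an array left 1 to 4 higher and 2 to 4 lower. For clock outputs 8 were lower after quantile normalization and 8 after median centring, and omission left 1 to 2 higher. Glucocorticoid-induced genes had 1 higher after quantile normalization and 1 to 2 with an array omitted.

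Signs reversed after quantile normalization for Arntl (-0.075), Per3 (-0.0053), Bhlhe40 (-0.058), Npas2 (-0.059), Ftsj1 (-0.0071), Kdm2b (-0.057) and Kdm1b (-0.063), after median centring for Bhlhe40 (-0.10), and without non-NMJ replicate 2 or NMJ replicate 3 for Gsk3b (0.0088 and 0.019). Ftsj1, Kdm2b and Kdm1b were picked for profiles like that of Arntl, so their reversals are not separate from that of Arntl. The cause of the reversals was not tested. No core clock gene had more than 1 row, so another choice of row gave no value.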
